A study of Mus musculus with 6 samples.

Results

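Pla2g2d and the enzymes of eicosanoid synthesis were followed here in splenic B cells that lack the tetraspanin CD37. The set lists 10 genes, of which 9 were measured among the 19935 genes on the arrays. Pla2g2d was chosen by its measured difference between the genotypes, since it stood higher with CD37 absent in these same arrays. That difference is therefore given as a description, with no test. The others were added for their place in the pathway: the phospholipases Pla2g4a, Pla2g6 and Pla2g7, the leukotriene genes Alox5, Alox5ap and Lta4h, and the prostanoid genes Ptgs1, Ptgs2 and Hpgds. Ptgs1, which encodes the constitutive cyclooxygenase, was not analysed here, because the annotation used here names no probe set for it, alone or shared.

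Eicosanoids are local lipid messengers made from arachidonic acid. Phospholipases A2 cut the fatty acid from membrane phospholipids, after which lipoxygenase and its partners make leukotrienes and cyclooxygenases make the precursor of prostaglandins and thromboxane. In lymphoid tissue most of this machinery is known from myeloid cells, mast cells and platelets rather than from B cells. In mice, Pla2g2d is known as a secreted phospholipase A2 of dendritic cells and macrophages in lymphoid organs.

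RNA came from the CD43-, B220+ splenic B cells of 3 Cd37-/- mice (CD37KO) and 3 wild-type littermates (WT), all C57BL/6J and untreated, with 1 Affymetrix mouse gene array per mouse. The mice were 3 months old by GEO's labels, although the methods state an older range. The genotype is that of the whole mouse, so any non-B cell left in a CD37KO isolate lacked CD37 as well. B cells were isolated by removing cells that carry CD43, and B220 staining served to assess purity. Isolates short of full purity were accepted, down to a floor that the methods state.

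All values are log2 expression after RMA, the authors' background correction, normalization between arrays and summary of each probe set. A level was called above background where it exceeded 5.77, the level under which 95% of 1015 olfactory receptor genes lay, genes that B cells are not expected to use. Levels of different probe sets also depend on their sequences, so no level is read as more or less RNA than that of another gene. The signals of probe sets were ranked only to choose which listed genes to name, and were summed only to compare a list between arrays. RMA compresses dim signals, so a fold near background understates the fold in RNA.

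Cd37 checked the labels: it lay at 8.15, 8.17 and 8.17 in the CD37KO arrays, against 11.99, 11.82 and 12.08 in the WT arrays. The 11 measured genes of the mature B cell list were above background in all 6 arrays, with list means of 11.44 to 11.49 in CD37KO and 11.46 to 11.53 in WT cells. Genes of other cells were measurable too, and the arrays differed in them. The mean of 19 macrophage and monocyte genes was 9.22, 8.11 and 9.27 in CD37KO replicates 1, 2 and 3, against 9.17, 8.42 and 8.50 in WT replicates 1, 2 and 3, so CD37KO replicate 2 was the lowest and WT replicate 1 lay with the high CD37KO arrays. The mean of 18 neutrophil genes was 7.51, 6.33 and 6.86 in CD37KO arrays, against 6.04, 5.87 and 6.09 in WT arrays, without overlap between the genotypes. In bulk RNA, fewer cells of a type and less RNA per cell cannot be told apart.

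Pla2g2d (Entrez Gene 18782) was the one member whose genotypes did not overlap. It lay at 8.24, 7.96 and 8.51 in CD37KO replicates 1, 2 and 3, against 7.51, 7.004 and 6.86 in WT replicates 1, 2 and 3. Every CD37KO array was above every WT array, and the lowest CD37KO array exceeded the highest WT array by 0.46 on the log2 scale. The mean was 8.24 ± 0.27 in CD37KO and 7.12 ± 0.34 in WT cells (SD, n = 3 mice each), a log2 difference of 1.11 (standard error 0.18) and a fold of 2.16. The 9 pairs of a CD37KO and a WT array differed by 0.46 to 1.64, with a median of 1.10. Among all 19935 genes, 4.33% had every CD37KO array above every WT array. Ranked by the signed difference, from highest in CD37KO downward, Pla2g2d came 9th. Genes lower in CD37KO, such as Cd37, stand below it in this ranking whatever the size of their difference. Both figures describe the contrast that chose the gene.

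Leaving out 1 array at a time kept the Pla2g2d difference between 0.98 and 1.30 on the log2 scale. Within each genotype its levels also spread: the pooled within-genotype SD of 0.31 was wider than that of 96.1% of genes with a mean above background. In CD37KO arrays the lowest Pla2g2d level was in replicate 2, which among CD37KO arrays also had the lowest means of the macrophage and the neutrophil list. In WT arrays the highest level was in replicate 1, the array with the highest macrophage list among WT, whereas the neutrophil list was highest in WT replicate 3.

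**Figure D1:**
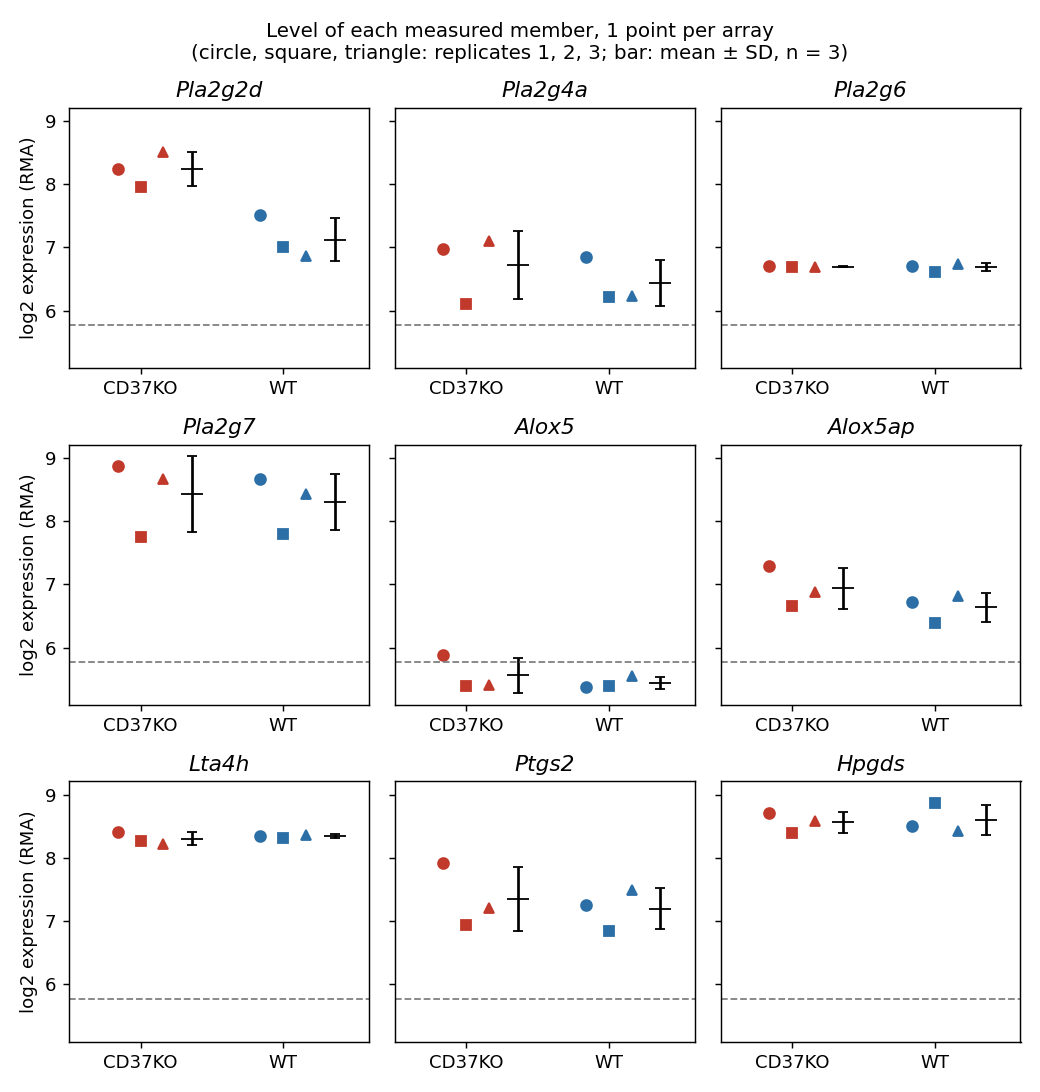
Log2 expression (RMA, y axis) of the 9 measured members in CD37KO (red, left) and WT (blue, right) arrays, with circle, square and triangle for replicates 1, 2 and 3, black bars for the mean ± SD (n = 3) and the dashed line for the background level of 5.77. The 3 CD37KO points of Pla2g2d lie above its 3 WT points, while the points of the other 8 members overlap between the genotypes, and Alox5 lies at or below the dashed line in 5 of 6 arrays.

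The genes around Pla2g2d were read next, because the secreted phospholipases of this family lie side by side on mouse chromosome 4. On the GRCm38.p6 assembly, Pla2g2f and Pla2g2c came just before Pla2g2d, and Pla2g5 and Pla2g2e after it. Only genes annotated as protein-coding were placed in this order, so other members of the family can be missing from it. None of these 4 relatives, named after their values were seen, was above background in any array. Pla2g5, the nearest on one side, lay at 5.50, 5.51 and 5.32 in CD37KO arrays, against 5.49, 5.64 and 5.56 in WT arrays, and Pla2g2f, the nearest on the other, at 5.13, 5.21 and 5.08 in CD37KO arrays, against 5.14, 5.19 and 5.24 in WT arrays. Among these neighbouring phospholipase genes, Pla2g2d was the one measured above background. Pla2g2c lay at 5.25, 5.45 and 5.39 in CD37KO arrays and at 5.63, 5.59 and 5.66 in WT arrays, which is a log2 difference of -0.26 with a standard error of 0.070, all of it below background (limma, adjusted p = 0.801).

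The promoter windows of Pla2g2d, Pla2g4a and Pla2g7 are printed here. Pla2g2d was taken as the member that differed most, and the other 2 as the members that had their highest levels in the same arrays. They are RefSeq sequences of GRCm38.p6, 250 bases before to 50 after the annotated start, at chr4:138775485-138775784, plus strand, at chr1:149961241-149961540, minus strand (the first of its 2 windows), and at chr17:43568201-43568500, plus strand. Of the 10 listed genes, 9 had such a window, and Alox5ap had none. Capitals mark matches, on either strand, to GAGGAA (a core of ETS family sites), TATAAA, TTCNNNGAA (the STAT palindrome) or the interferon response element, searched as GAAA, any 2 bases and GAAA.
Pla2g2d: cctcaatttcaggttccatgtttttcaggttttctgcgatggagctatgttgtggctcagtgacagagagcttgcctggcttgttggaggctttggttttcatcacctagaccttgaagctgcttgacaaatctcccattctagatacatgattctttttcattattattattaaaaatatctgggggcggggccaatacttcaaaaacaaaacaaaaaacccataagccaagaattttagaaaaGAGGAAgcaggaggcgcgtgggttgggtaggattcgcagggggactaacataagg
Pla2g4a: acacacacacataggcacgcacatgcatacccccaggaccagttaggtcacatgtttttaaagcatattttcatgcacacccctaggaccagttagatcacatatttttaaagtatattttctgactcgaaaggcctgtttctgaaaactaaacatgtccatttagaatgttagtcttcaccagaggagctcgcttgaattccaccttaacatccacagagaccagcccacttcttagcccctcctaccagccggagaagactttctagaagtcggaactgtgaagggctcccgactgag
Pla2g7: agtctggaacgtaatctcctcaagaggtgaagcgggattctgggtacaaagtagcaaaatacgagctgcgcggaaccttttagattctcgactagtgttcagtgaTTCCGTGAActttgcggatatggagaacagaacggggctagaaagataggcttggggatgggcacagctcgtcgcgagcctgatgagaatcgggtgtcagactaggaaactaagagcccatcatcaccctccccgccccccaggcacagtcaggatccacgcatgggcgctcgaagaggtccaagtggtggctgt

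The Pla2g2d window held GAGGAA from position -5 and none of the other motifs. Of the 9 genes with a window, 6 held GAGGAA in their first window, and 28.3% of all 32851 windows of this length held it, where a gene can have several. The Pla2g7 window held TTCNNNGAA as TTCCGTGAA, which 8.3% of all windows contain, and the Pla2g4a window held none of the 4. No match in these windows overlapped another. These matches are letters in a sequence and no measurement of binding.

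The other phospholipases did not differ between the genotypes beyond their spread. Pla2g4a encodes the calcium-activated cytosolic enzyme that releases arachidonic acid in stimulated cells. It lay at 6.97, 6.10 and 7.10 in CD37KO arrays, against 6.85, 6.21 and 6.23 in WT arrays. CD37KO replicates 1 and 3 and WT replicate 1 were the high arrays, so the genotypes overlapped and the lowest array was a CD37KO one. The log2 difference was 0.29 (standard error 0.27, 95% interval -0.32 to 0.91, adjusted p = 0.845 from limma).

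Pla2g7 encodes the secreted acetylhydrolase that inactivates platelet-activating factor, an enzyme known from macrophages. Its levels were 8.87, 7.75 and 8.66 in CD37KO arrays, against 8.66, 7.80 and 8.43 in WT arrays. Both replicates numbered 2 were low and the rest high, a range of 1.12 over the 6 arrays that the genotype did not divide. The log2 difference was 0.13 (standard error 0.30, 95% interval -0.57 to 0.83, adjusted p = 0.940 from limma). Pla2g6, the calcium-independent phospholipase of membrane upkeep, was the steadiest member, with 6.70, 6.69 and 6.68 in CD37KO arrays, against 6.71, 6.62 and 6.74 in WT arrays. Its log2 difference was 0.0053 (standard error 0.061, 95% interval -0.13 to 0.15, adjusted p = 0.988 from limma).

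Leukotriene synthesis starts with Alox5, the lipoxygenase that oxidises arachidonic acid, and Alox5ap, the membrane protein that presents the fatty acid to it. Alox5 was above background in 1 of 6 arrays, CD37KO replicate 1. It lay at 5.88, 5.39 and 5.41 in CD37KO arrays, against 5.37, 5.40 and 5.55 in WT arrays. At these levels the array gave little room to see a change, and the log2 difference of 0.12 had a standard error of 0.13 (95% interval -0.18 to 0.42, limma adjusted p = 0.860).

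Alox5ap was above background throughout, at 7.29, 6.65 and 6.87 in CD37KO arrays, against 6.72, 6.38 and 6.81 in WT arrays. CD37KO replicate 1 was the highest array and WT replicate 2 the lowest, and CD37KO was higher in 7 of the 9 pairs of arrays. Its difference of 0.30 (standard error 0.17, 95% interval -0.08 to 0.69, adjusted p = 0.801 from limma) was the largest among the members other than Pla2g2d and did not pass the test. Lta4h, the hydrolase that makes leukotriene B4, lay at 8.42, 8.27 and 8.22 in CD37KO arrays, against 8.35, 8.31 and 8.37 in WT arrays. It differed by -0.043 (standard error 0.070, 95% interval -0.20 to 0.12, adjusted p = 0.907 from limma), within a range of 0.20 over all arrays.

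On the prostanoid side, Ptgs2 encodes the inducible cyclooxygenase. It was above background in all 6 arrays, at 7.91, 6.94 and 7.21 in CD37KO arrays, against 7.25, 6.85 and 7.49 in WT arrays. The highest array was CD37KO replicate 1 and the lowest WT replicate 2, with the rest mixed. The difference was 0.16 (standard error 0.25, 95% interval -0.40 to 0.72, adjusted p = 0.902 from limma). Hpgds, the haematopoietic synthase of prostaglandin D2 known from mast cells and antigen-presenting cells, lay at 8.72, 8.39 and 8.59 in CD37KO arrays, against 8.50, 8.87 and 8.43 in WT arrays. Its highest array was WT replicate 2, where Alox5ap, Ptgs2 and Lta4h were lowest among the WT arrays, and its difference was -0.030 (standard error 0.13, 95% interval -0.32 to 0.26, adjusted p = 0.965 from limma). Of the 10 mast cell and basophil genes, 7 (Cpa3, Mcpt8, Fcer1a, Gata2, Mcpt4, Cma1, Tpsb2) were below background in every array. Hdc, the enzyme that makes histamine, was above background in all 6, with 8.14, 6.79 and 6.81 in CD37KO arrays, against 6.87, 6.51 and 7.10 in WT arrays. Ms4a2, a chain of the IgE receptor, was above background in CD37KO replicate 2 and WT replicate 3, and Kit in WT replicate 3. The summed signal of this list ran from 437 to 596 in CD37KO arrays and from 427 to 493 in WT arrays, and its part in the Hpgds levels was not tested.

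**Figure D2:**
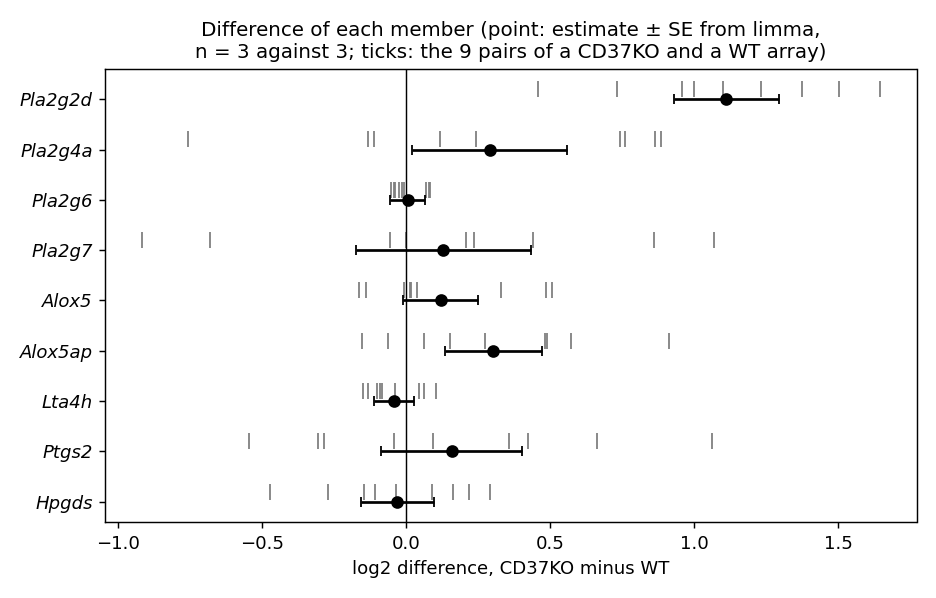
Log2 difference (CD37KO minus WT, x axis) of the 9 measured members, with the estimate ± standard error from limma as black points and bars (3 arrays against 3) and the 9 pairs of a CD37KO and a WT array as grey ticks. All 9 ticks of Pla2g2d lie above 0, from 0.46 to 1.64, whereas the ticks of every other member fall on both sides of 0.

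Pla2g2d was left out of the counts below because this contrast chose it, which is no statement that it passed. limma called none of the 8 measured members other than Pla2g2d at an adjusted p under 0.05, a threshold that 0.0552% of all genes passed (0.0251% as higher in CD37KO). At an unadjusted p under 0.05, which 5.95% of all genes passed, it also called none of the 8, and ordinary least squares called none after adjustment. Their median log2 difference was 0.12, beside -0.019 over all genes. Without CD37KO replicate 2, 12.7% of all genes passed the unadjusted threshold, and 2 of the 8 members did. Pla2g4a then differed by 0.60 (unadjusted p = 0.0127, adjusted p = 0.303 from limma) and Alox5ap by 0.45 (unadjusted p = 0.0241, adjusted p = 0.339 from limma).

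The levels of 2 members followed particular arrays of both genotypes, a pattern chosen after the values were seen. Among the 8 members above background throughout, 2 had their 3 highest levels in CD37KO replicates 1 and 3 and WT replicate 1, Pla2g4a and Pla2g7. So did 14 of the 15 macrophage and monocyte genes above background in all arrays, against 9.87% of the 9874 genes above background in all arrays. The within-genotype SD was 0.46 for Pla2g4a and 0.53 for Pla2g7, wider than that of 98.4% and 98.8% of genes with a mean above background. The gene nearest in profile to Pla2g7 was C1qb, a complement gene of macrophages, at a root mean square difference of 0.089 over the 6 arrays after each gene was centred on its own mean. The gene nearest to Pla2g4a was Pik3cb, a subunit of PI3 kinase, at 0.054. For the other members the nearest genes were R3hdm4 for Pla2g6 (0.00746), Phlpp1 for Alox5 (0.048), Chil1 for Alox5ap (0.056), Sumo2 for Lta4h (0.016), Rasgrp4 for Ptgs2 (0.13) and Scfd1 for Hpgds (0.027). CD37KO replicate 2 was the lowest CD37KO array for 7 of the 9 members, and it is the lowest for 43.4% of genes with a mean above background.

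The macrophage and monocyte list overlapped between the genotypes. Its summed signal on the linear scale ran from 7432 to 19036 in CD37KO arrays and from 9426 to 17133 in WT arrays. At an unadjusted p under 0.05, 1 of its 19 genes was higher (2.96% of all genes) and none was lower (2.99% of all genes). Marco and Ccr2 were below background in all arrays. Vcam1, an adhesion molecule of splenic macrophages, lay at 10.93, 9.47 and 11.03 in CD37KO arrays, against 10.83, 9.97 and 10.05 in WT arrays, and Slc40a1, the iron exporter, at 10.997, 9.35 and 11.04 in CD37KO arrays, against 11.06, 10.07 and 10.12 in WT arrays. The summed signal of the neutrophil list ran from 2205 to 6422 in CD37KO arrays and from 1278 to 1565 in WT arrays. At an unadjusted p under 0.05, 14 of its 18 genes were higher (2.96% of all genes) and none was lower. Every CD37KO array was above every WT array for 10 of the 18 (4.33% of all genes). Ngp, a granule protein, lay at 11.09, 9.48 and 10.56 in CD37KO arrays, against 8.34, 8.13 and 8.46 in WT arrays. Lcn2, an iron-binding granule protein, lay at 10.24, 8.401 and 9.46 in CD37KO arrays, against 7.53, 6.97 and 7.70 in WT arrays. No neutrophil gene passed the adjusted test, and only Mcemp1 of this list was below background in all arrays.

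The dendritic cell list was not higher in CD37KO cells. Its mean log2 level was 6.09, 6.07 and 6.15 in CD37KO arrays, against 6.17, 6.17 and 6.16 in WT arrays. The summed signal ran from 6474 to 6781 in CD37KO arrays and from 6882 to 7033 in WT arrays. Most of that sum came from Ccr7, so it says little about the other genes of the list. Ccr7, a chemokine receptor that B cells carry too, lay at 12.51, 12.59 and 12.51 in CD37KO arrays, against 12.60, 12.62 and 12.64 in WT arrays. Of the 13 genes of the list, 7 were below background in all arrays (Xcr1, Clec9a, Batf3, Ccr9, Clec4a4, Clec10a and Esam). The other 6 were above background in all arrays: Ccr7, Itgax, Zbtb46, Flt3, Siglech and Cd209a. At an unadjusted p under 0.05, 2 of the list were lower (2.99% of all genes) and none was higher. Itgax, the integrin chain CD11c, lay at 6.998, 6.23 and 6.80 in CD37KO arrays, against 6.92, 6.76 and 6.72 in WT arrays. The part of other cell types in the Pla2g2d difference was not tested.

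**Figure D3:**
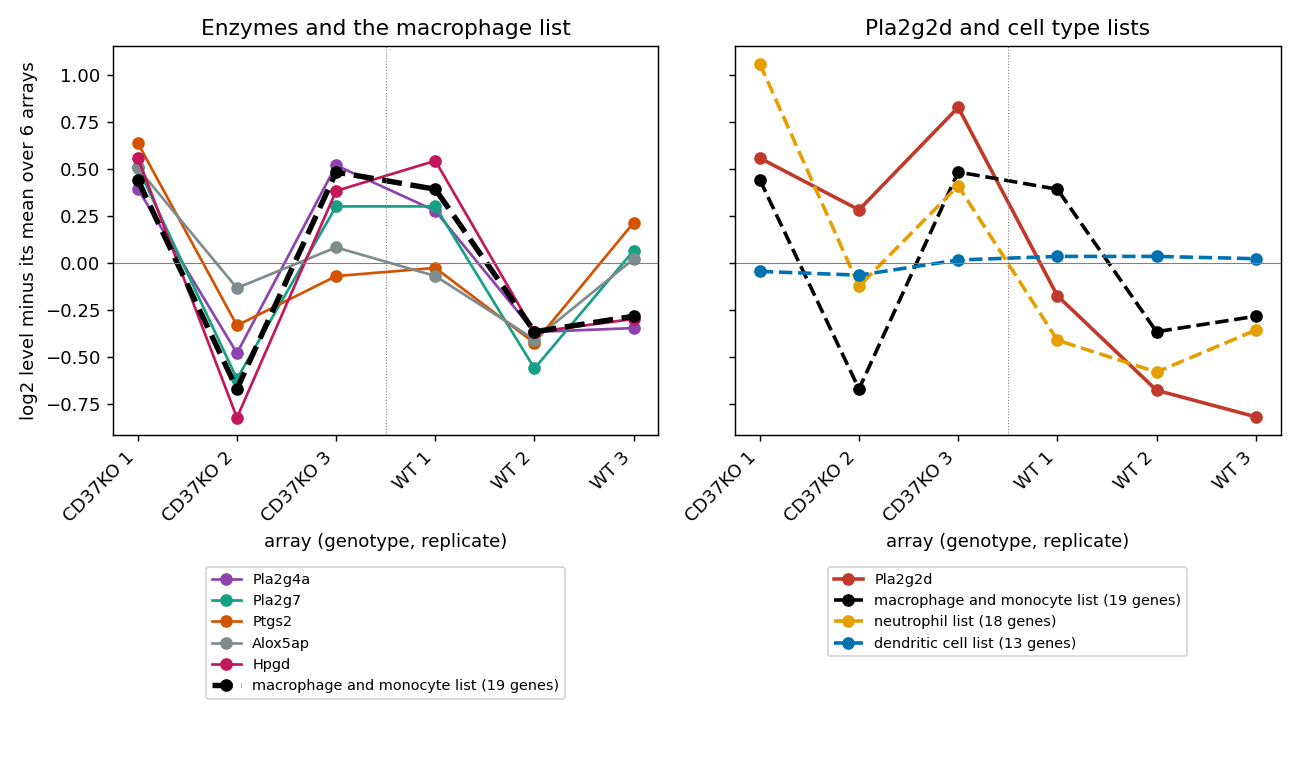
Log2 level minus its mean over the 6 arrays (y axis) for each array (x axis, genotype and replicate), with lines only joining the points of 1 gene or list. On the left, Pla2g4a, Pla2g7, Hpgd and the macrophage and monocyte list have their 3 highest points in CD37KO replicates 1 and 3 and WT replicate 1. Pla2g7 is also above its mean in WT replicate 3, where that list is below its own. Ptgs2 and Alox5ap, drawn there too, are highest among WT arrays in replicate 3. On the right, Pla2g2d is high in all 3 CD37KO arrays, as is the neutrophil list against its WT arrays, while the macrophage list is low in CD37KO replicate 2 and the dendritic cell list stays nearly level.

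The genes most like Pla2g2d over the 6 arrays were sought among 10512 genes with a mean above background, by the root mean square difference of the centred profiles. The 8 nearest were Adgrl2 (0.25), Selenon (0.27), Nnt (0.27), Oas2 (0.28), Ifitm6 (0.29), Cxcl10 (0.32), Gca (0.32) and Slfn5 (0.32). Since Pla2g2d was chosen for its difference, these genes share that difference by construction. Adgrl2, an adhesion receptor of the latrophilin family, lay at 7.49, 7.12 and 7.92 in CD37KO arrays, against 7.02, 6.73 and 6.72 in WT arrays, with the same order of CD37KO arrays as Pla2g2d. Oas2, an antiviral enzyme induced by interferon, lay at 8.37, 8.38 and 8.51 in CD37KO arrays, against 8.13, 7.71 and 7.61 in WT arrays. Its WT arrays stood in the order of those of Pla2g2d, with replicate 1 highest. Nnt, a mitochondrial transhydrogenase in which C57BL/6J mice are known to carry a deletion, lay at 8.48, 8.51 and 8.44 in CD37KO arrays, against 7.54, 7.49 and 7.53 in WT arrays. Its arrays hardly varied within a genotype. The WT arrays were the lower ones, although the methods state a C57BL/6J background for both genotypes. The part of strain background in the Pla2g2d difference was not tested. Cxcl10 and Slfn5 are interferon-induced genes like Oas2, and Ifitm6 belongs to the neutrophil list.

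**Figure D4:**
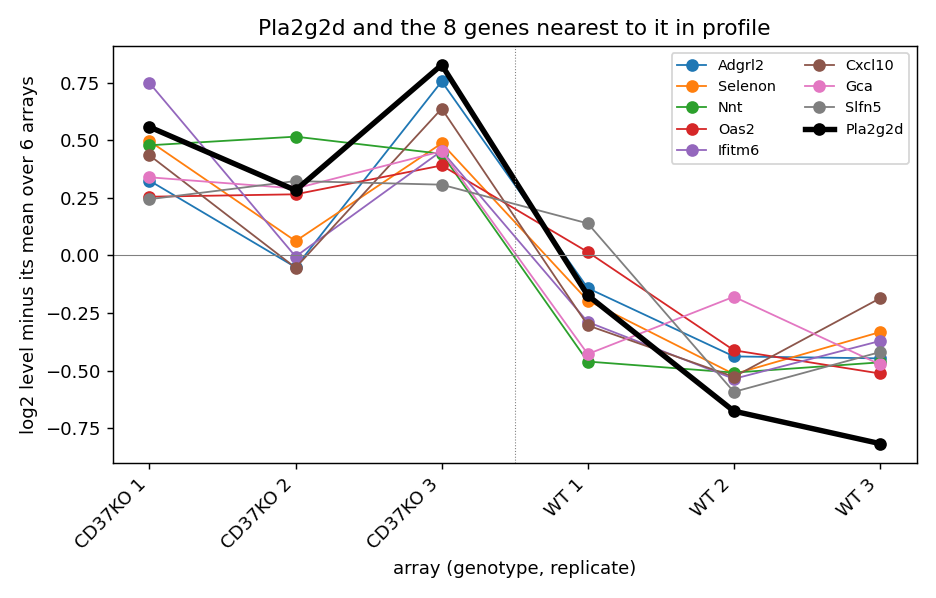
Log2 level minus its mean over the 6 arrays (y axis) of Pla2g2d (black) and the 8 genes nearest to it in profile (colours) for each array (x axis, genotype and replicate), with lines only joining the points of 1 gene. For all 9 genes the lowest CD37KO point is above the highest WT point, and the root mean square difference from Pla2g2d runs from 0.25 for Adgrl2 to 0.32 for Slfn5.

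The log2 differences of the wider pathway ran from -0.26 to 0.26, beside 1.11 for Pla2g2d. Of 85 further genes listed, 77 were measured, 28 were above background in all 6 arrays and 44 in none. None passed an adjusted p under 0.05 from limma, 4 were lower and none higher at an unadjusted p under 0.05, where 2.99% of all genes were lower and 2.96% higher, and ordinary least squares called none after adjustment. The 4 lower genes were the phospholipases Pla2g2a and Pla2g2c, the phospholipase receptor Pla2r1 and the lipoxygenase Alox12. They are named after their values were seen, and all were below background in every array. C57BL/6 mice are known to carry a disrupted Pla2g2a. Every CD37KO array was below every WT array for 8 of the 77 genes (7.57% of all genes) and above for 2 (4.33% of all genes). The median log2 difference of the 77 genes was -0.033, beside -0.019 over all genes.

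Among the 21 genes of other phospholipases A2, related acetylhydrolases and their receptor, 6 were above background in all arrays and 14 in none, with 3 lower (2.99% of all genes) and none higher at an unadjusted p under 0.05. The 3 were Pla2g2a, Pla2g2c and Pla2r1, below background in every array. Named for their probe set signals were Pafah1b1 and Pafah1b2, subunits of the intracellular acetylhydrolase of platelet-activating factor. Pafah1b1 lay at 9.32, 9.26 and 9.31 in CD37KO arrays, against 9.40, 9.51 and 9.28 in WT arrays, and Pafah1b2 at 8.70, 8.85 and 8.69 in CD37KO arrays, against 8.78, 8.68 and 8.84 in WT arrays. Both overlapped between the genotypes.

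Leukotriene genes other than the members gave no unadjusted call among 9. Cyp4f18, the cytochrome that inactivates leukotriene B4 in mouse leukocytes, lay at 10.62, 10.72 and 10.54 in CD37KO arrays, against 10.70, 10.59 and 10.87 in WT arrays. Dpep2, a dipeptidase that converts leukotriene D4, lay at 6.32, 6.23 and 6.28 in CD37KO arrays, against 6.25, 6.45 and 6.24 in WT arrays. The 6 other lipoxygenases were below background in all arrays, Alox15 and Alox12b included.

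Prostanoid genes were more often above background, 8 of 11 in all arrays, again with no unadjusted call. Ptges3, a cochaperone that also acts as a prostaglandin E synthase, lay at 11.80, 11.70 and 11.63 in CD37KO arrays, against 11.81, 11.66 and 11.92 in WT arrays. Hpgd, the dehydrogenase that breaks down prostaglandins, lay at 9.60, 8.21 and 9.42 in CD37KO arrays, against 9.58, 8.67 and 8.74 in WT arrays, so it followed the arrays with the high macrophage list. It differed by 0.081 with a standard error of 0.37 (limma, adjusted p = 0.969).

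Of 14 receptors, 4 were above background in all arrays and 10 in none. Ptger4, the prostaglandin E2 receptor EP4, lay at 9.31, 9.28 and 9.33 in CD37KO arrays, against 9.17, 9.38 and 9.43 in WT arrays, and differed by -0.019 (standard error 0.079, adjusted p = 0.965 from limma). Ptger1, the receptor EP1, lay at 6.60, 6.33 and 6.36 in CD37KO arrays, against 6.28, 6.55 and 6.34 in WT arrays. The 9 genes of arachidonic acid storage and release held no unadjusted call and had differences from -0.10 to 0.083. Among them Lpcat3, which loads arachidonic acid into phospholipids, averaged 8.92 ± 0.10 in CD37KO and 9.01 ± 0.014 in WT cells (SD, n = 3 mice each). Of the epoxygenase and epoxide hydrolase genes, 1 of 7 was above background in all arrays, the hydrolase Ephx1, with 10.16, 10.15 and 10.05 in CD37KO arrays, against 10.20, 9.77 and 10.20 in WT arrays. Cyp2c29, an epoxygenase, was below background in every array.

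**Figure D5:**
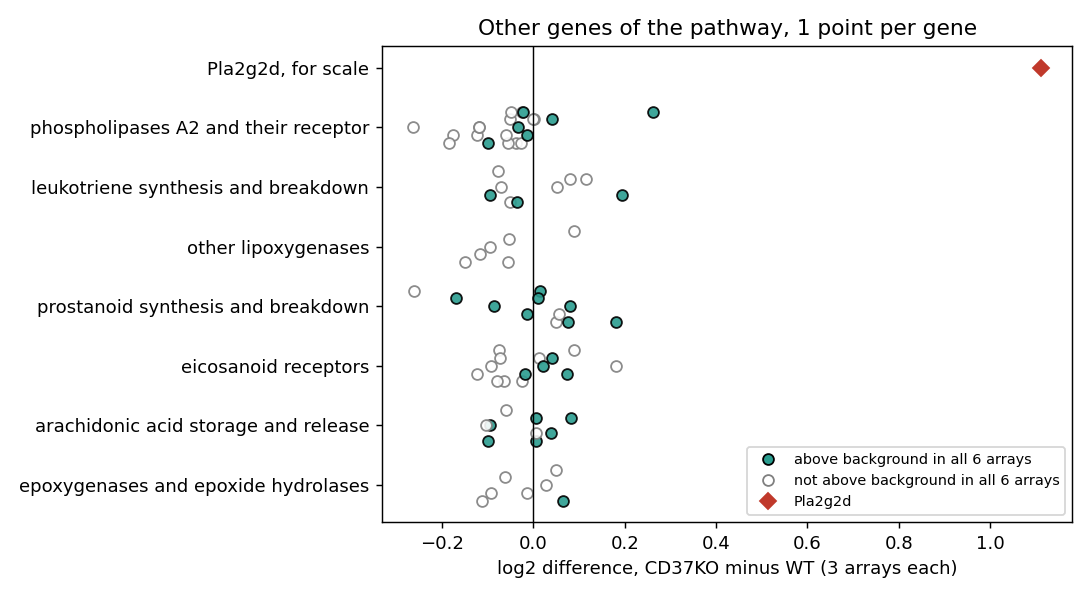
Log2 difference (CD37KO minus WT, 3 arrays each, x axis) of the 77 other pathway genes, 1 point per gene in a row per list, filled where the gene was above background in all 6 arrays and open otherwise, with Pla2g2d as a red diamond at 1.11 for scale. The points of the lists lie between -0.26 and 0.26.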

How the data were processed

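RNA of CD43-, B220+ splenic B cells from 3 CD37KO and 3 WT mice was measured on Affymetrix arrays. The authors deposited log2 values per probe set, and the submitters' processing notes name RMA and the build mm8. For the software behind RMA, the sources used here give no name. Of 35361 probe sets, 21780 named a single gene in the annotation used here, and the brightest of each gene was kept, giving 19935 genes. Each measured member had 1 such probe set. No filter on dim genes was applied. The genotypes were compared by two-sided moderated tests in limma 3.58.1 (R 4.3.3), adjusted over all genes by Benjamini-Hochberg at a threshold of 0.05, and the fit was tested on simulated data. Precision is limited by 3 arrays per group, and no scan date or other batch is given in the labels or the file. The members, gene lists, motifs and alternatives were chosen with earlier results of these data known. The rule for named genes took the members, Cd37, the 2 brightest genes of each list, pathway genes above background in any array at an unadjusted p under 0.05 (none), and the nearest profiles (8 for Pla2g2d, 1 for each other member). Markers are printed only for lists set beside a result. The alternatives changed the normalization (quantile again, median centring), the probe sets (their mean), the genes fitted (those above background), the spread model (trend with robust eBayes, ordinary least squares, array weights), the arrays (a replicate block, each array left out) and the background level. Because the files use another build, coordinates are given only for the RefSeq promoter windows.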

Additional observations from a re-analysis of the deposited data

How the results depend on the processing

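Of the 111 alternative values for the 8 members other than Pla2g2d, 100 kept their direction and none passed an adjusted p under 0.05 from limma (lowest 0.300). The 11 that changed sign belonged to Pla2g6, Pla2g7, Alox5, Ptgs2 and Hpgds. Pla2g6 turned to -0.045 with another quantile normalization and -0.013 with array weights, and Hpgds to 0.079 with array weights. With 1 array left out, Pla2g6 ran from -0.030 to 0.030 (negative without WT replicate 2), Pla2g7 from -0.12 to 0.47 and Ptgs2 from -0.12 to 0.36 (both negative without CD37KO replicate 1, with -0.093 and -0.12, and without WT replicate 2, with -0.12 and -0.015), Alox5 from -0.041 to 0.21 (negative without CD37KO replicate 1) and Hpgds from -0.11 to 0.10 (positive without CD37KO replicate 2, with 0.057, and without WT replicate 2). At an unadjusted p under 0.05, 0 to 2 passed when 1 array was left out (2 without CD37KO replicate 2) and 1, Alox5ap, passed with the replicate block. Same-numbered deviations from the genotype means correlated at 0.24, 0.0068 and -0.14 over all genes, and differently numbered ones at -0.37 to 0.31. With 3 arrays per genotype these values cannot settle whether the replicate numbers pair the arrays, and the sources used here state no pairing. The Pla2g2d difference lay between 0.98 and 1.30 when 1 array was left out and was lowest, at 0.93, with array weights. With background at the 99th percentile of olfactory genes, 6 rather than 8 members were above it in all arrays. The count of 4 pathway genes at an unadjusted p under 0.05 was 2 with another quantile normalization, 0 with only genes above background (28 of the 77 were left), 12 with array weights (1 higher, 11 lower, where 17.4% of all genes passed) and 2 to 10 when 1 array was left out, with 10 (3 higher, 7 lower) without CD37KO replicate 2 (12.7% of all genes), 7 without WT replicate 2 (8.71% of all genes) and 2 without each of the other 4 arrays in turn. Apart from the fewer genes or arrays fitted, the cause of each shift was not tested. Low signals limit what the arrays show for Alox5 and for the 44 pathway genes below background.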

Other observations

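Other genes of the pathway also followed particular arrays of both genotypes. Of the 28 further pathway genes above background in all arrays, 7 had their 3 highest levels in CD37KO replicates 1 and 3 and WT replicate 1, 25.0% against 9.87% of the 9874 genes above background in all arrays. They were Pla2g15, the lysosomal phospholipase A2, Ptgis, the prostacyclin synthase, Tbxas1, the thromboxane synthase, Hpgd, Cmklr1, a chemerin and resolvin receptor, Lpcat2 and Daglb, and all but Hpgd and Lpcat2 are named after their values were seen. Tbxas1 lay at 6.98, 5.99 and 7.04 in CD37KO arrays, against 6.89, 6.16 and 6.41 in WT arrays. Pla2g15 lay at 8.84, 7.64 and 9.09 in CD37KO arrays, against 8.70, 8.05 and 8.03 in WT arrays. The lowest array of both was CD37KO replicate 2. The part of macrophage RNA in these levels was not tested.

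Of the 8 genes nearest to Pla2g2d in profile, 6 had a promoter window in the RefSeq table, and the interferon response element (GAAA, any 2 bases, GAAA) was present in 2 of these, Cxcl10 and Slfn5, beside 3.44% of all windows. TATAAA and TTCNNNGAA were each present in 2 of the 6 as well, beside 13.6% and 8.3% of all windows, and GAGGAA, the motif of the Pla2g2d window, in 0 of the 6, beside 28.3%. The motifs were picked after the genes had been seen, so this is a description only.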
